A study of Mus musculus with 18 samples.

Results

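Thioredoxins are small proteins that reduce disulfide bonds in other proteins, and thioredoxin reductases, which are selenoproteins, recharge them with electrons from NADPH. Most peroxiredoxins use thioredoxin to remove hydrogen peroxide, and sulfiredoxin restores peroxiredoxins that an excess of peroxide has over-oxidized. The cytosol and the mitochondrion hold separate sets of these proteins and the endoplasmic reticulum (ER) has a peroxiredoxin of its own, and in macrophages the system meets the peroxide that activated cells produce. The thioredoxin and peroxiredoxin genes described here were chosen by symbol, as the 10 of 56748 genes in the count table named *Txn1*, *Txnrd1*, *Srxn1*, *Prdx1*, *Prdx6*, *Prdx5*, *Txn2*, *Txnrd2*, *Prdx3* and *Prdx4*. By the location known for their proteins, 5 belong to the cytosol, 3 to the mitochondrion, 1 to the ER and 1, *Prdx5*, to several compartments. All 10 had enough counts to be among the 13691 genes tested, with 416 to 88925 counts in a library.

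RNA was taken from RAW264.7, an immortalized mouse macrophage line, so the values describe 1 transformed line in culture and not primary macrophages. The study asked how tert-butylhydroquinone (TBHQ), a phenolic food antioxidant, alters the response of these cells to lipopolysaccharide (LPS) from bacteria and to poly(I:C) (PIC), a mimic of viral double-stranded RNA. Each of 6 conditions had 3 libraries, which the methods call biological replicates and the labels only number. Control cells had no further treatment, and a vehicle group is not described for the sequencing experiment. The TBHQ group had 5 µM for 4 h and was collected at the end of that exposure, so against the control a difference in the time of harvest and the TBHQ itself cannot be told apart. A figure legend sets the control beside the 12 h groups, but the methods do not give its time of harvest, so a difference in that time is not excluded for LPS and PIC against the control either. The LPS group had 0.1 µg/mL for 12 h and the PIC group 20 µg/mL for 12 h. In the LPS+TBHQ and PIC+TBHQ groups the same stimulus followed 4 h of 5 µM TBHQ, and whether TBHQ was then removed is not given in the sources used here. TBHQ was dissolved in DMSO, and the methods describe no DMSO for the LPS and PIC groups. Nor do the methods say whether these groups were first kept 4 h without TBHQ. Against the stimulus alone, TBHQ, its solvent and a difference in culture time thus cannot be told apart.

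Poly(A)-selected mRNA was sequenced, and the 18 libraries held 14423390 to 18851626 counts on genes, with a median of 15742337.5. Levels are given as FPKM deposited by the authors, with the SD of 3 libraries. Beyond gene length and the total of counts, these FPKM hold a constant per library that differs by condition, of 0.943 to 0.951 in the control, 0.945 to 0.954 with TBHQ, 1.005 to 1.01 under LPS, 0.992 to 0.999 under LPS+TBHQ, 1.11 to 1.12 under PIC and 1.05 to 1.056 under PIC+TBHQ. FPKM are thus not on the scale of total library size, and small differences and the lack of overlap between conditions in FPKM depend on that constant, while ratios within a library do not. Changes are log2 fold changes of the counts from the quasi-likelihood test of edgeR, with a standard error (SE) from the spread of the replicates, and a gene was called at a false discovery rate (FDR, Benjamini-Hochberg over all 13691 genes) below 0.05. In bulk RNA, fewer cells with a transcript and less of it per cell cannot be told apart. Comparisons with the control share its 3 libraries, and the LPS and PIC libraries each serve in several comparisons, so values below stand side by side and no overlap between comparisons is drawn from them.

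The labels were checked against other genes of the same libraries. All 8 macrophage markers listed were expressed, with *Lyz2* the most abundant at 3399 to 4647 FPKM. Markers of T cells, epithelial cells, fibroblasts and endothelial cells summed to at most 0.235 FPKM in any library for any of these types, and *Cd3e*, *Cdh1*, *Krt18* and *Col1a2* were at 0 throughout. Of 3 neutrophil markers, *Ly6g* was at 0 throughout and *S100a8* was the most abundant, and their sum moved with the stimulus. It was 0.837 to 0.939 FPKM in the control, 0.264 to 0.592 with TBHQ, 2.94 to 3.71 with LPS, 5.07 to 6.01 with PIC, 1.99 to 4.69 with LPS+TBHQ and 2.79 to 4.58 with PIC+TBHQ, and its part in the results below was not tested. The antioxidant genes *Hmox1*, *Gclm*, *Nqo1* and *Slc7a11* rose with TBHQ against the control, by 2.09, 1.82, 3.24 and 1.80 on the log2 scale (FDR at most 3.5e-06 in the quasi-likelihood test of edgeR with Benjamini-Hochberg adjustment). They are not particular to TBHQ. LPS and PIC alone raised *Hmox1* by 2.33 and 2.57, *Slc7a11* by 2.10 and 2.51 and *Gclm* by 0.93 and 0.72 (FDR at most 7.8e-18 by edgeR with Benjamini-Hochberg adjustment). *Nqo1* was at 1.98 (SE 0.59) with LPS and 1.16 (SE 0.36) with PIC (FDR = 0.00561 and 0.132, edgeR with Benjamini-Hochberg adjustment). Without LPS replicate 3 the LPS value was 1.19, at an FDR of 0.154 by edgeR with Benjamini-Hochberg adjustment. The PIC value was 0.84 in limma on log2(FPKM + 0.1), called at an FDR of 0.0443 with Benjamini-Hochberg adjustment. *Tnf*, *Il1b*, *Cxcl10* and *Ifit1* rose with LPS and with PIC, where the same edgeR test with Benjamini-Hochberg adjustment gave an FDR of at most 1.5e-06. With TBHQ before the stimulus, *Gclm*, *Nqo1* and *Slc7a11* also rose, by 0.98, 1.71 and 0.72 against LPS and by 1.10, 2.60 and 0.41 against PIC (FDR at most 5.9e-04 by edgeR with Benjamini-Hochberg adjustment). *Hmox1* fell there, by 0.30 against LPS (FDR = 2.0e-08) and 0.16 against PIC (FDR = 2.9e-04), in the same edgeR test with Benjamini-Hochberg adjustment. With TBHQ alone *Tnf* and *Cxcl10* also rose, by 0.68 and 0.65, and *Ifit1* fell by 0.42.

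In the control, *Txn1* at 363 ± 4.76 FPKM and *Prdx1* at 349 ± 4.62 FPKM (SD, n = 3) were far above the other members. Mean FPKM was 66.9 for *Prdx3*, 63.1 for *Txnrd1*, 53.1 for *Prdx5*, 50.03 for *Srxn1*, 42.5 for *Prdx4*, 34.3 for *Txn2*, 27.7 for *Prdx6* and 7.16 for *Txnrd2*. The libraries of *Prdx3* and *Txnrd1*, and those of *Prdx5* and *Srxn1*, overlapped in this order. With PIC+TBHQ the order was *Prdx1* at 1813, *Txn1* at 448, *Srxn1* at 215 and *Txnrd1* at 147 FPKM, while *Txnrd2* remained the lowest at 6.53. *Prdx1* alone took 0.111% to 0.113% of all counts in a control library and 0.521% to 0.526% in a PIC+TBHQ library, where it ranked between 6 and 7 among all genes by counts, against 69 to 73 in the control. Together the 10 genes took 0.277% to 0.282% of the counts in the control and 0.796% to 0.802% with PIC+TBHQ. The ratio of the highest to the lowest condition mean in FPKM was 5.20 for *Prdx1*, 4.29 for *Srxn1*, 3.54 for *Prdx5*, 2.47 for *Txnrd1* and 1.23 for *Txn1*, and it lay between 1.09 and 1.16 for *Prdx6*, *Txn2*, *Txnrd2*, *Prdx3* and *Prdx4*.

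**Figure D1:**
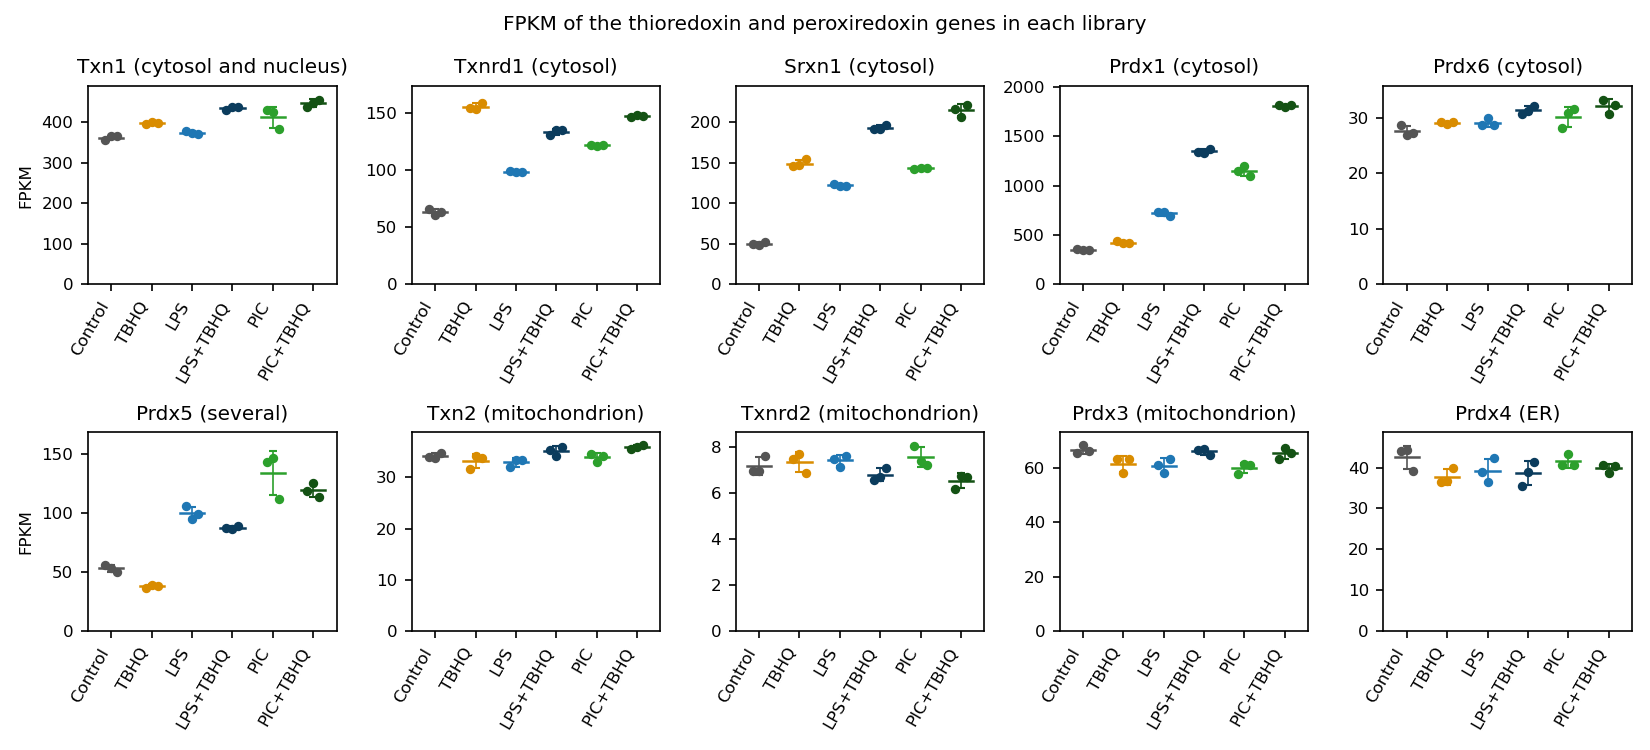
FPKM of each member in the 6 conditions, 1 panel per gene with its known compartment in the title; points are the 3 libraries, horizontal lines the mean and bars the SD, and each vertical axis starts at 0. *Prdx1* spans condition means from 349 to 1813 FPKM and *Srxn1* from 50.03 to 215, while *Txn2* spans 32.9 to 35.9.

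Counts of called members are set beside the share of all 13691 genes called in that direction, as a description of the list. With TBHQ against the control, 4 of the 10 members were higher (14.2% of all genes) and 3 lower (14.8%). LPS against the control had 4 higher (24%) and 1 lower (24.1%), and PIC against the control 6 higher (28.6%) and 1 lower (30.1%), where *Txn1* and *Prdx6*, counted as higher, had negative values with total library size (-0.047, not called, and -0.11, called). For LPS+TBHQ against LPS, 4 members were higher (11.7% of all genes) and 1 lower (12.2%), and for PIC+TBHQ against PIC, 5 were higher (15.8%) and 2 lower (15.5%). In PIC against LPS, 5 were higher (14.9%), of which *Txn1* was at -1.6e-04 with total library size, and 0 lower (12.8%). The change with TBHQ under PIC minus that under LPS was called for 0 members in the upward direction (0.825% of all genes) and 1 in the downward direction (1.01%). In the same order, the median log2 fold change of the 10 members was 0.052, 0.053, 0.14, 0.11, 0.11, 0.10 and -0.045. The median over all genes tested was -8.6e-05, -0.0040, -0.015, 0.0023, 0.0089, -0.0087 and 0.0091. With total library size as the scaling in place of TMM, the median of all genes moved to -0.23 for PIC against the control and to -0.14 for PIC against LPS, so small changes in these comparisons are relative to the scaling. Under that scaling 4 members were higher (13.9% of all genes) and 3 lower (15.1%) for TBHQ, 4 higher (17.9%) and 3 lower (33.3%) for LPS, and 4 higher (17.4%) and 5 lower (48.5%) for PIC, each against the control. They were 7 higher (15.1%) and 1 lower (10.2%) for LPS+TBHQ against LPS, 7 higher (24.8%) and 0 lower (10.5%) for PIC+TBHQ against PIC, 4 higher (7.19%) and 2 lower (31.9%) for PIC against LPS, and 0 higher (1.72%) and 1 lower (0.541%) for the difference of the TBHQ changes.

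**Figure D2:**
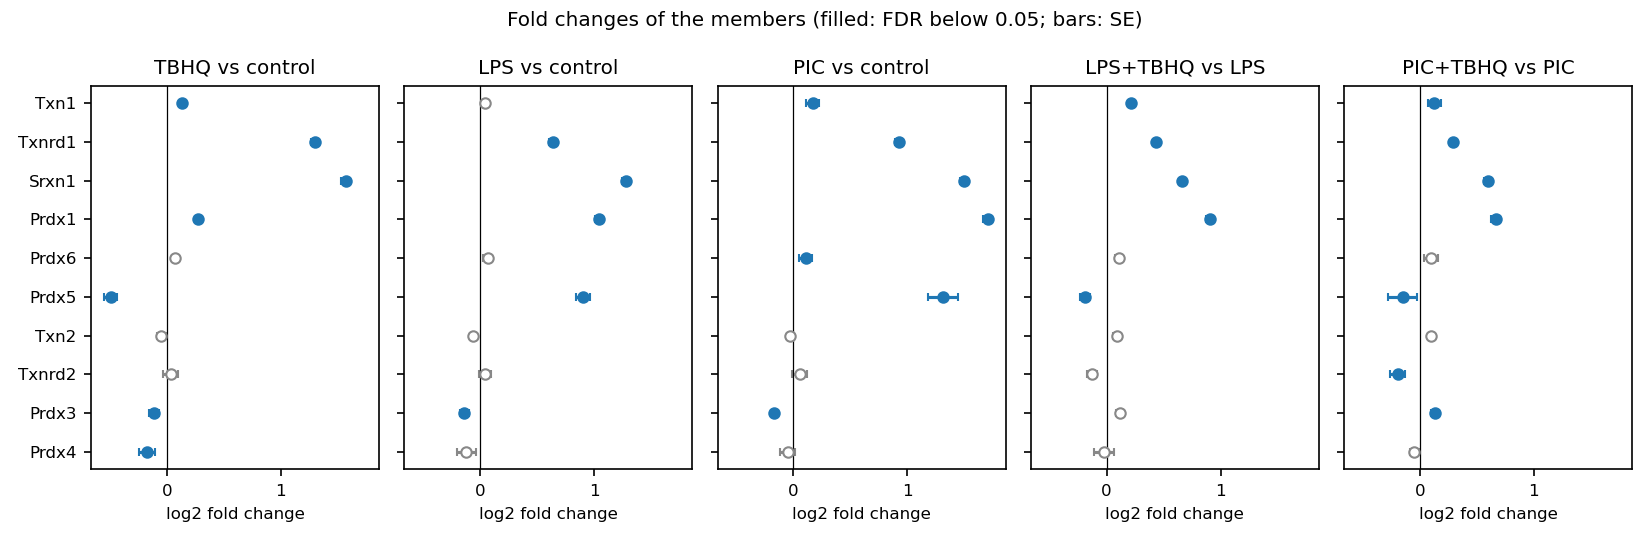
Log2 fold change of the 10 members in the 5 comparisons with a treatment added, 1 panel each; points are edgeR estimates, bars the SE over replicates, and filled points have an FDR below 0.05. *Txnrd1* and *Srxn1* lie at 1.3002 and 1.57 with TBHQ alone, and *Prdx5* is at -0.49 with TBHQ alone but at 0.90 with LPS and 1.32 with PIC; scaled by total library size, *Txn1* (-0.047), *Prdx6* (-0.11) and *Txnrd2* (-0.16) lie below 0 in the PIC panel.

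*Txnrd1* (ENSMUSG00000020250, chromosome 10, 82669785 to 82733546) encodes the cytosolic thioredoxin reductase. Its FPKM was 65.7, 60.6 and 63.0 in the 3 control libraries and 155, 153 and 159 with TBHQ. It was 99.6, 97.97 and 98.4 with LPS and 131, 135 and 135 with LPS+TBHQ. With PIC it was 122, 121 and 122, and with PIC+TBHQ 146, 148 and 148. No 2 conditions next to each other in the order of means overlapped, and the highest level of the 6 conditions was that of TBHQ alone. The log2 fold change was 1.3002 (SE 0.037) with TBHQ, 0.64 (SE 0.034) with LPS and 0.93 (SE 0.034) with PIC against the control, at an FDR of 1.4e-27, 3.3e-19 and 2.0e-24 in the quasi-likelihood test of edgeR with Benjamini-Hochberg adjustment. Pretreatment with TBHQ added 0.44 (SE 0.017) to LPS and 0.29 (SE 0.0067) to PIC, at an FDR of 4.5e-14 and 1.2e-09 by the same edgeR test with Benjamini-Hochberg adjustment. Stimulated cells that had seen TBHQ thus held more *Txnrd1* RNA than cells with the stimulus alone, in 3 of 3 libraries against each of 3. The transcripts of *Txnrd1* overlap those of *Eid3* on the same strand, whose counts summed to 0.749% of those of *Txnrd1*. The share of *Txnrd1* reads that this overlap affects was not tested.

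*Srxn1* (ENSMUSG00000032802, chromosome 2, 151947436 to 151953296) encodes sulfiredoxin, which reduces over-oxidized peroxiredoxins. Control libraries had 49.7, 48.1 and 52.3 FPKM, and TBHQ libraries 145, 147 and 154. LPS libraries had 124, 121 and 121, and LPS+TBHQ libraries 192, 191 and 196. The values were 142, 144 and 144 with PIC and 216, 207 and 221 with PIC+TBHQ. As for *Txnrd1*, neighbouring conditions in the order did not overlap in FPKM, but here both stimuli after TBHQ stood above TBHQ alone. The lack of overlap between LPS+TBHQ and PIC+TBHQ depends on the constant per library that the FPKM hold. *Srxn1* rose by 1.57 (SE 0.042) with TBHQ, 1.28 (SE 0.035) with LPS and 1.501 (SE 0.034) with PIC on the log2 scale, with FDR = 7.4e-28, 5.6e-26 and 1.5e-28 in the quasi-likelihood test of edgeR with Benjamini-Hochberg adjustment. TBHQ before the stimulus raised it by a further 0.66 (SE 0.016) in LPS and 0.59 (SE 0.030) in PIC, with FDR = 1.9e-17 and 2.9e-16 from edgeR's test with Benjamini-Hochberg adjustment. Mean FPKM with LPS+TBHQ and PIC+TBHQ was 3.86 and 4.29 times that of the control, against 2.44 and 2.86 times with LPS and PIC alone.

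*Prdx1* (ENSMUSG00000028691, chromosome 4, 116542741 to 116558019) encodes the major cytosolic peroxiredoxin. It measured 354, 349 and 344 FPKM in the control and 435, 418 and 415 with TBHQ. It measured 737, 733 and 693 with LPS and 1342, 1337 and 1371 with LPS+TBHQ. PIC libraries stood at 1155, 1203 and 1099.9, and PIC+TBHQ libraries at 1817, 1801 and 1822. Each step in this order of means, from the control over TBHQ, LPS, PIC and LPS+TBHQ to PIC+TBHQ, was free of overlap. TBHQ alone raised *Prdx1* by 0.27 (SE 0.026) on the log2 scale, LPS by 1.04 (SE 0.031) and PIC by 1.71 (SE 0.040), at an FDR of 8.9e-09, 2.5e-25 and 4.2e-32 (the quasi-likelihood test of edgeR with Benjamini-Hochberg adjustment). The same TBHQ exposure before a stimulus was followed by a rise of 0.90 (SE 0.031) over LPS and 0.66 (SE 0.039) over PIC, at an FDR of 9.5e-23 and 6.1e-19 by edgeR with Benjamini-Hochberg adjustment. These rises and the one with TBHQ alone were measured at different times after exposure, and the difference between them was not tested. The rise under PIC was smaller than that under LPS by 0.24 on the log2 scale (log2 difference -0.24, SE 0.049), at an FDR of 7.7e-04 in the quasi-likelihood test of edgeR on the difference with Benjamini-Hochberg adjustment, and *Prdx1* was the only one of the 10 members called there. Of the 50-base words in its transcripts, 8.29% also occur in another gene, so some of its counts could have been split with related sequences.

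*Txn1* (ENSMUSG00000028367, chromosome 4, 57943373 to 57956411) encodes the thioredoxin of cytosol and nucleus. The control libraries had 357, 365 and 366 FPKM and the TBHQ libraries 397, 402 and 398. With LPS the values were 378, 375 and 372, and with LPS+TBHQ 432, 437 and 439. They were 430.4, 426 and 383 with PIC, where replicate 3 stood apart at the low end, and 438, 449 and 457 with PIC+TBHQ. Changes were small beside those of its reductase, although the libraries of each comparison named next did not overlap. *Txn1* rose by 0.14 (SE 0.012) with TBHQ, 0.21 (SE 0.0096) with LPS+TBHQ over LPS and 0.13 (SE 0.058) with PIC+TBHQ over PIC, at an FDR of 0.00335, 1.3e-05 and 0.00492 in the quasi-likelihood test of edgeR with Benjamini-Hochberg adjustment. Without PIC replicate 3 the last of these was 0.060 at an FDR of 0.187 by edgeR with Benjamini-Hochberg adjustment, so that call rested on 1 library. PIC against the control gave 0.17 (SE 0.056, FDR = 8.8e-05 by edgeR with Benjamini-Hochberg adjustment), which became -0.047 when libraries were scaled by total size. LPS against the control gave 0.041 (SE 0.012, FDR = 0.366, likewise from edgeR with Benjamini-Hochberg adjustment) and was not called, and it lay at -0.047 under that scaling.

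*Prdx6* (ENSMUSG00000026701, chromosome 1, 161067682 to 161078789) encodes a cytosolic peroxiredoxin that is reduced by glutathione and not by thioredoxin. Its FPKM was 28.7, 26.9 and 27.4 in the control, 29.2, 28.9 and 29.2 with TBHQ and 28.2, 30.8 and 31.6 with PIC. It was 28.6, 30.0 and 28.7 with LPS, 30.8, 31.3 and 32.1 when TBHQ came before LPS and 33.2, 30.7 and 32.4 when it came before PIC. The span from the lowest to the highest of the 18 libraries was narrow, and PIC replicate 1 lay within the range of the control. Only PIC against the control was called, at 0.11 (SE 0.056, FDR = 0.0297 in the quasi-likelihood test of edgeR with Benjamini-Hochberg adjustment), and scaled by total library size it was -0.11 and called as lower. Without PIC replicate 1 it was 0.17. That call was lost without control replicate 2 (0.089) or 3 (0.098) or PIC replicate 2 (0.11) or 3 (0.090). LPS+TBHQ against LPS gave 0.11, without overlap, and PIC+TBHQ against PIC 0.10, with overlap, neither of them called (FDR = 0.0667 and 0.0760, edgeR with Benjamini-Hochberg adjustment). Both were called with total library size (0.13 and 0.17), the first also without LPS replicate 2 (0.13) and the second without PIC+TBHQ replicate 2 (0.13). Without any 1 library the first ranged from 0.090 to 0.13 and the second from 0.038 to 0.13.

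*Prdx5* (ENSMUSG00000024953, chromosome 19, 6884065 to 6887474) encodes a peroxiredoxin found in mitochondria, peroxisomes and cytosol. Its libraries had 55.6, 53.6 and 50.02 FPKM in the control and 36.1, 39.2 and 38.0 with TBHQ. LPS libraries had 105, 95.2 and 99.0 and LPS+TBHQ libraries 86.9, 86.6 and 89.3. PIC libraries had 143, 146 and 112 and PIC+TBHQ libraries 119, 126 and 114. TBHQ libraries were thus below all control libraries and those of both stimuli above them, and PIC replicate 3 lay below the 2 other PIC libraries and every PIC+TBHQ library. *Prdx5* fell by 0.49 on the log2 scale with TBHQ (SE 0.057) and rose by 0.90 with LPS (SE 0.061) and 1.32 with PIC (SE 0.13), at an FDR of 3.4e-07, 1.3e-14 and 1.1e-19 in the quasi-likelihood test of edgeR with Benjamini-Hochberg adjustment. TBHQ before LPS gave -0.19 (SE 0.043) and before PIC -0.15 (SE 0.13), at an FDR of 0.0191 and 0.0496 (edgeR, Benjamini-Hochberg adjustment). Neither call was stable. The LPS call was lost in DESeq2, in limma on log2 FPKM, and without LPS replicate 1 (-0.15), LPS+TBHQ replicate 1 (-0.18) or LPS+TBHQ replicate 2 (-0.18). Without PIC replicate 3 the PIC value was -0.28 and still called. The PIC call was lost in these tools, with total library size (-0.082), in a fit to the conditions compared only, and without PIC replicate 1 (-0.11), PIC replicate 2 (-0.097), PIC+TBHQ replicate 1 (-0.15) or PIC+TBHQ replicate 3 (-0.12). *Trmt112* lies on the opposite strand over *Prdx5* with 28.3% of its counts, and since the methods name strand-specific libraries, the labels name both kinds, and the strand setting of the counting is not given in the sources used here, the counts of *Prdx5* are uncertain by a share that was not tested.

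The 3 mitochondrial members varied little in level. *Txn2* (ENSMUSG00000005354, chromosome 15, 77799247 to 77813206), the mitochondrial thioredoxin, had 34.1, 33.9 and 34.8 FPKM in the control and 31.6, 34.2 and 33.9 with TBHQ. *Txnrd2* (ENSMUSG00000075704, chromosome 16, 18245134 to 18297823), the mitochondrial thioredoxin reductase, had 6.93, 6.94 and 7.61 FPKM in the control and 7.48, 7.70 and 6.85 with TBHQ. *Prdx3* (ENSMUSG00000024997, chromosome 19, 60852489 to 60862994), the mitochondrial peroxiredoxin that thioredoxin 2 reduces, had 65.5, 68.6 and 66.5 FPKM in the control and 63.4, 58.3 and 63.5 with TBHQ. Within *Txn2* and within *Txnrd2* the control and TBHQ libraries overlapped, and for *Prdx3* the TBHQ libraries were all below the control libraries.

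*Txn2* was called in none of the comparisons in edgeR, with log2 fold changes from -0.064 with LPS to 0.096 with PIC+TBHQ over PIC, where the FDR was 0.189 and 0.0623 by its quasi-likelihood test with Benjamini-Hochberg adjustment. LPS+TBHQ libraries of 35.4, 34.1 and 35.9 FPKM stood above LPS libraries of 32.0, 33.4 and 33.5, and PIC+TBHQ libraries of 35.5, 36.0 and 36.3 above PIC libraries of 34.6, 33.0 and 34.1. These differences of 0.092 and 0.096 on the log2 scale missed the threshold, which does not show that they are absent. With libraries scaled by total size, *Txn2* passed it in 5 comparisons, at -0.15 for LPS and -0.25 for PIC against the control, 0.12 for LPS+TBHQ against LPS, 0.16 for PIC+TBHQ against PIC, and -0.098 for PIC against LPS, where the sign was the opposite of the 0.031 with TMM. Without PIC replicate 2, PIC against the control went from -0.033 to 2.3e-04.

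*Txnrd2* had 7.48, 7.14 and 7.61 FPKM with LPS against 6.56, 6.70 and 7.10 under LPS+TBHQ, and 8.04, 7.37 and 7.22 under PIC against 6.15, 6.73 and 6.70 with PIC+TBHQ. In FPKM, libraries with TBHQ before a stimulus were all below those of that stimulus alone, the opposite direction to *Txnrd1*. For LPS this lack of overlap depends on the constant per library that the FPKM hold. Its log2 fold change was -0.20 (SE 0.064) for PIC+TBHQ over PIC, called at an FDR of 0.0303, and -0.13 (SE 0.043) for LPS+TBHQ over LPS, not called at 0.193, in the quasi-likelihood test of edgeR with Benjamini-Hochberg adjustment. The PIC call was lost with total library size (-0.13), with no filter on low counts (-0.20), and without PIC replicate 1 (-0.16) or PIC+TBHQ replicate 1 (-0.16). At 416 to 566 counts a library *Txnrd2* was the least sequenced member. Against the control *Txnrd2* was not called, at 0.032 with TBHQ, 0.041 with LPS and 0.055 with PIC, and total library size turned the last 2 to -0.047 and -0.16, the latter called as lower, as the omission of TBHQ replicate 2 turned the first to -0.0040.

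*Prdx3* had 61.1, 58.3 and 63.6 FPKM with LPS against 66.9, 67.1 and 64.9 under LPS+TBHQ, and 58.0, 61.4 and 61.1 under PIC against 63.4, 67.4 and 65.8 with PIC+TBHQ. All 3 single treatments lay below the control, and TBHQ before a stimulus lay above that stimulus alone, with no overlap in any of these comparisons. *Prdx3* fell by 0.12 with TBHQ, 0.14 with LPS and 0.17 with PIC on the log2 scale (SE 0.044, 0.040 and 0.032), at an FDR of 0.0454, 0.00993 and 0.00165 in the quasi-likelihood test of edgeR with Benjamini-Hochberg adjustment. The change with PIC+TBHQ over PIC was 0.13 (SE 0.035), called at an FDR of 0.0232, and that with LPS+TBHQ over LPS 0.12 (SE 0.038), not called at 0.0538, by edgeR with Benjamini-Hochberg adjustment. The TBHQ call was lost in DESeq2, with RLE size factors, with no filter on low counts, and without control replicate 1 (-0.13), 2 (-0.098) or 3 (-0.12) or TBHQ replicate 2 (-0.079). The LPS call was lost without control replicate 2 (-0.12) or LPS replicate 2 (-0.098), while the PIC call against the control held in every alternative run at an FDR below 0.05, though not at the study's stricter threshold. With total library size the LPS value was -0.23 and the PIC value -0.39. PIC+TBHQ over PIC lost its call in DESeq2, with no filter, and without PIC replicate 1 (0.093), 2 (0.13) or 3 (0.13) or PIC+TBHQ replicate 2 (0.11) or 3 (0.12). LPS+TBHQ over LPS gained one with total library size (0.14), in limma on log2 FPKM, and without LPS replicate 3 (0.15).

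*Prdx4* (ENSMUSG00000025289, chromosome X, 154106914 to 154123750) encodes the peroxiredoxin of the ER, which passes oxidizing equivalents to protein disulfide isomerases. Its FPKM was 44.0, 44.3 and 39.3 in the control and 36.6, 36.6 and 39.8 with TBHQ, which overlapped through control replicate 3. LPS libraries had 38.9, 36.5 and 42.3, and with TBHQ first 35.5, 39.0 and 41.4, which overlapped. PIC libraries had 40.7, 43.3 and 40.7, and with TBHQ first 40.6, 38.7 and 40.3, which did not. The sole call was TBHQ against the control, at -0.18 (SE 0.069, FDR = 0.0166 in the quasi-likelihood test of edgeR with Benjamini-Hochberg adjustment). It was lost in limma on log2 FPKM and without control replicate 1 (-0.15) or 2 (-0.14) or TBHQ replicate 1 (-0.16) or 2 (-0.16). LPS against the control, at -0.12 with an FDR of 0.0736 by edgeR with Benjamini-Hochberg adjustment, was called without control replicate 3 (-0.18), without LPS replicate 3 (-0.17) and with total library size (-0.21). Without any 1 library this value ranged from -0.18 to -0.064. LPS+TBHQ against LPS gave -0.024, and it turned to 0.034 without LPS replicate 3, 0.035 without LPS+TBHQ replicate 1 and 0.0012 with total library size. PIC+TBHQ against PIC gave -0.048, with no overlap of libraries, or 0.021 with total library size, and PIC against the control gave -0.051, or -0.27 and a call with total library size.

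Cytosolic and mitochondrial forms of the same enzyme were compared as a ratio of their FPKM within each library, so that depth and library scaling cancel. A ratio shows unequal change and not which form changed. The ratio of *Txnrd1* to *Txnrd2* was 8.83 ± 0.606 in the control and 21.3 ± 1.71 with TBHQ, 13.3 ± 0.399 under LPS against 19.7 ± 0.608 under LPS+TBHQ, and 16.1 ± 0.915 under PIC against 22.6 ± 0.985 under PIC+TBHQ (SD, n = 3). TBHQ moved the log2 ratio by 1.27 (SE 0.087) in unstimulated cells, 0.57 (SE 0.036) under LPS and 0.49 (SE 0.060) under PIC. The libraries did not overlap in any of these 3 comparisons, and the exact two-sided permutation p of each was 0.1, the smallest that 3 libraries against 3 allow. *Prdx1* to *Prdx3* stood at 5.22 ± 0.159 in the control against 6.85 ± 0.321 with TBHQ, 11.8 ± 0.859 under LPS against 20.4 ± 0.660 under LPS+TBHQ, and 19.2 ± 1.02 under PIC against 27.7 ± 0.963 under PIC+TBHQ. Its log2 difference was 0.39 (SE 0.046) with TBHQ, 0.79 (SE 0.067) with TBHQ before LPS and 0.53 (SE 0.053) before PIC, again with no overlap and an exact permutation p of 0.1 in each.

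For the thioredoxins the ratio moved less. *Txn1* to *Txn2* was 10.6 ± 0.171 in the control and 12.0 ± 0.464 with TBHQ, 11.4 ± 0.391 under LPS against 12.4 ± 0.357 under LPS+TBHQ, and 12.2 ± 0.869 under PIC against 12.5 ± 0.124 under PIC+TBHQ (SD, n = 3). The log2 difference was 0.18 (SE 0.034) with TBHQ and 0.12 (SE 0.037) with TBHQ before LPS, both without overlap and at an exact permutation p of 0.1. Before PIC it was 0.033 (SE 0.061), the libraries overlapped, and the exact permutation p was 0.8. Leaving out PIC replicate 3, whose ratio of 11.2 was the lowest of the PIC libraries, turned this value to -0.025.

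**Figure D3:**
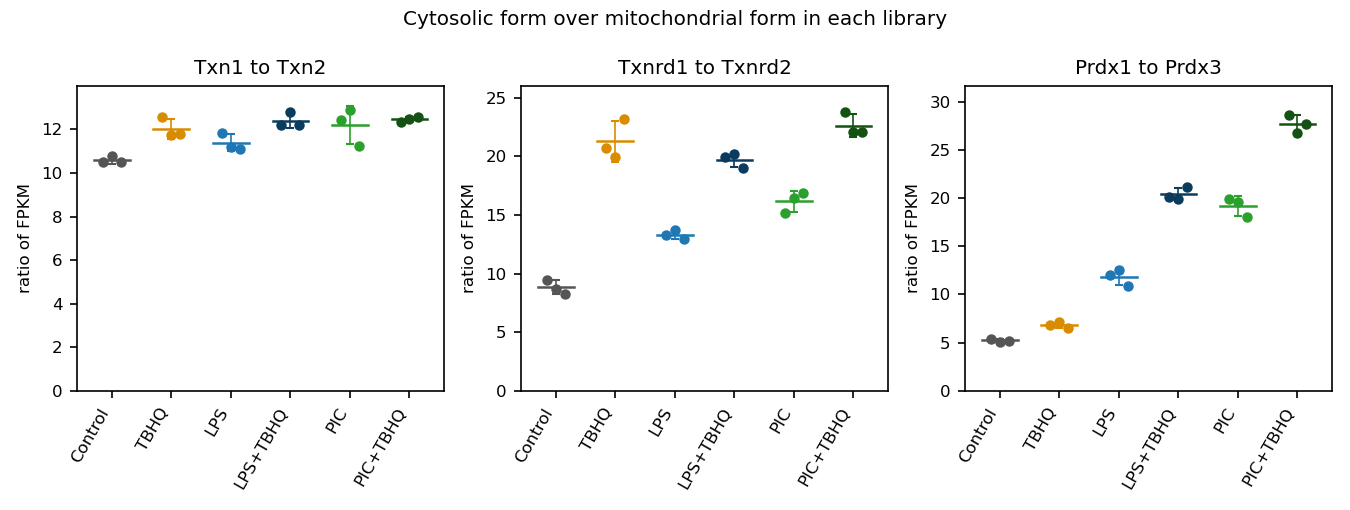
Ratio of the FPKM of the cytosolic to the mitochondrial form in each library for thioredoxin, thioredoxin reductase and peroxiredoxin; points are libraries, lines the mean and bars the SD of 3, and axes start at 0. *Prdx1* to *Prdx3* goes from 5.22 in the control to 27.7 with PIC+TBHQ, and *Txn1* to *Txn2* has condition means from 10.6 to 12.5.

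PIC and LPS were also compared directly, at the single dose and time used for each. *Prdx1* was higher with PIC by 0.67 (SE 0.048), *Prdx5* by 0.41 (SE 0.13), *Txnrd1* by 0.29 (SE 0.0060), *Srxn1* by 0.22 (SE 0.0089) and *Txn1* by 0.13 (SE 0.055) on the log2 scale, with every PIC library above every LPS library. The FDR was 5.3e-19, 1.6e-06, 1.4e-09, 4.3e-06 and 0.00527 in the quasi-likelihood test of edgeR with Benjamini-Hochberg adjustment. Scaled by total library size, *Txn1* went to -1.6e-04, and without PIC replicate 1 it was 0.10 at an FDR of 0.0503 by edgeR with Benjamini-Hochberg adjustment. *Prdx6*, *Txn2*, *Txnrd2*, *Prdx3* and *Prdx4* were not called, and PIC and LPS libraries overlapped for each of them. With total library size *Txn2* (-0.098) and *Prdx3* (-0.16) were called as lower with PIC.

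The effect of TBHQ under PIC minus that under LPS was -0.15 for *Txnrd1* (SE 0.019, FDR = 0.0639 in the quasi-likelihood test of edgeR with Benjamini-Hochberg adjustment), just outside the threshold. It was inside the threshold in DESeq2, with RLE size factors, and without LPS replicate 2 (-0.16) or PIC replicate 2 (-0.17), among other settings. *Srxn1* differed by -0.066 (SE 0.034) and *Txn1* by -0.086 (SE 0.058), at an FDR of 0.589 and 0.454 by edgeR with Benjamini-Hochberg adjustment. Without PIC replicate 3 the value for *Txn1* was -0.15, and without PIC+TBHQ replicate 2 that for *Srxn1* was -0.042. The remaining 6 members, *Prdx6*, *Prdx5*, *Txn2*, *Txnrd2*, *Prdx3* and *Prdx4*, were not called in this test.

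Members were next set against each other and against all other genes by Pearson's r of log2 CPM over the 18 libraries. These points share their condition within each 3 and their library depth, so r is a description with no test. *Txnrd1* and *Srxn1* had an r of 0.930, *Srxn1* and *Prdx1* 0.792, *Prdx1* and *Prdx5* 0.829, and *Txnrd1* and *Prdx5* 0.142. The cytosolic and mitochondrial reductases had -0.238, *Txn1* and *Txn2* 0.536, and *Prdx1* and *Prdx3* -0.0041. Among 10450 genes with a mean of at least 50 counts, the 5 most like *Txnrd1* were *Chpf2*, *Nop14*, *Mgat4b*, *Plec* and *Cxxc1*, with r from 0.975 to 0.941. The 5 most like *Srxn1* were *Abcc1*, *Layn*, *G6pdx*, *Mafg* and *Slc48a1*, with r from 0.990 to 0.965. *Abcc1* encodes an exporter of glutathione conjugates, *G6pdx* the first enzyme of the pentose phosphate pathway and *Mafg* a small Maf transcription factor.

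Other genes of the pathway, taken from a list of 44, were tested where counts allowed, which was so for 40. TBHQ against the control had 3 of the 40 higher (14.2% of all genes) and 11 lower (14.8%), LPS 7 (24%) and 17 (24.1%), and PIC 11 (28.6%) and 17 (30.1%). In LPS+TBHQ against LPS 9 were higher (11.7%) and 8 lower (12.2%), and in PIC+TBHQ against PIC 7 (15.8%) and 10 (15.5%). PIC against LPS had 11 higher (14.9%) and 8 lower (12.8%). Their median log2 fold change, in this order, was -0.052, -0.11, -0.067, 0.035, -0.029 and 0.023.

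*Ero1a* and *Glrx* were the genes of this list that changed by at least 0.5 on the log2 scale with TBHQ before a stimulus. *Ero1a*, the ER oxidase that supplies oxidizing equivalents to protein disulfide isomerase, had 32.1, 32.7 and 32.9 FPKM in the control, 25.0, 22.4 and 24.0 with TBHQ, 67.8, 63.2 and 61.3 with LPS and 40.8, 36.9 and 36.9 with LPS+TBHQ. It had 74.0, 73.4 and 74.5 with PIC and 45.5, 40.9 and 42.1 with PIC+TBHQ. TBHQ libraries lay below the control, LPS and PIC libraries above it, and libraries with TBHQ before either stimulus lay between the control and the stimulus alone. It fell by 0.46 with TBHQ alone (FDR = 1.0e-09, edgeR with Benjamini-Hochberg adjustment). It rose by 0.97 with LPS and 1.17 with PIC and fell by 0.75 and 0.78 when TBHQ came first, at an FDR of at most 7.3e-16 in the quasi-likelihood test of edgeR with Benjamini-Hochberg adjustment. *Glrx*, the cytosolic glutaredoxin, which draws on glutathione, went from 9.82 ± 0.433 FPKM in the control to 43.5 ± 1.59 under LPS and 29.2 ± 1.57 under LPS+TBHQ, and to 51.5 ± 3.05 under PIC and 34.5 ± 0.546 under PIC+TBHQ (SD, n = 3). Its log2 fold changes were 2.14, -0.57, 2.38 and -0.57 for these 4 steps, at an FDR of at most 3.9e-12 by edgeR with Benjamini-Hochberg adjustment, and no libraries overlapped. Both genes thus moved with TBHQ in the opposite direction to *Txnrd1*, *Srxn1* and *Prdx1* in stimulated cells.

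Genes named after their values were seen include *Sesn2*, a stress-induced sestrin linked to peroxiredoxin recycling, *Txnip*, which binds and inhibits thioredoxin, and *Prdx2*, the other main cytosolic peroxiredoxin. *Sesn2* had 8.90, 9.38 and 9.60 FPKM in the control, and it rose by 1.51 with LPS and 1.82 with PIC and fell by 0.4989, just short of the 0.5 above, and 0.45 when TBHQ preceded them (FDR at most 1.4e-09, the quasi-likelihood test of edgeR with Benjamini-Hochberg adjustment). *Txnip* had 96.1, 91.1 and 92.2 FPKM in the control, 73.7, 71.2 and 74.8 with TBHQ, 55.7, 52.2 and 49.0 with LPS and 58.9, 58.9 and 60.6 with PIC. It fell by 0.35, 0.84 and 0.66 in these 3 treatments, with no library above any control library and an FDR of at most 2.0e-08 in edgeR with Benjamini-Hochberg adjustment. TBHQ before LPS gave 0.14 and before PIC -0.13 (FDR = 0.0159 and 0.0166 by edgeR with Benjamini-Hochberg adjustment). The first call was lost without LPS replicate 3 (0.091) or LPS+TBHQ replicate 2 (0.099), and the second without PIC+TBHQ replicate 1 (-0.12) and with total library size (-0.062). *Prdx2*, at 59.3, 61.7 and 57.8 FPKM in the control, was called in no comparison, and its 0.031 with PIC against the control turned to -0.19, then called, with total library size, where LPS against the control was also called (-0.11).

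Of the 40 tested pathway genes, 5 differed in their TBHQ effect between PIC and LPS, 1 higher under PIC (0.825% of all genes) and 4 lower (1.01%). All were named after their values were seen, and they were *Msrb1*, a methionine sulfoxide reductase (0.24), *Rrm1* (-0.19) and *Rrm2* (-0.31), subunits of ribonucleotide reductase, which thioredoxin serves as an electron donor, *Tmx4*, an ER thioredoxin-like protein (-0.29), and *Txnip* (-0.27). The FDR was 0.0460, 0.0460, 0.00970, 0.0436 and 0.01001 in the quasi-likelihood test of edgeR on the difference with Benjamini-Hochberg adjustment. *Rrm2* kept its call in every alternative run at an FDR below 0.05, though not at the study's stricter threshold. *Txnip* lost it without LPS+TBHQ replicate 2 (-0.23). *Msrb1* lost it in DESeq2, in a fit to the conditions compared only, with the replicate number as a block, with RLE size factors, with no filter, and without LPS replicate 1 (0.23), 2 (0.21) or 3 (0.24), PIC replicate 1 (0.21), 2 (0.22) or 3 (0.24), LPS+TBHQ replicate 1 (0.23) or 2 (0.21), or PIC+TBHQ replicate 1 (0.22), 2 (0.24) or 3 (0.24). *Rrm1* lost it in a fit to the conditions compared only (-0.21), with total library size (-0.15) and without LPS replicate 1 (-0.17), LPS+TBHQ replicate 1 (-0.21), 2 (-0.18) or 3 (-0.19), or PIC+TBHQ replicate 1 (-0.19) or 2 (-0.19). *Tmx4* lost it with total library size (-0.25), in limma on log2 FPKM, and without LPS replicate 1 (-0.23), PIC replicate 3 (-0.27), LPS+TBHQ replicate 1 (-0.27) or 2 (-0.26), or PIC+TBHQ replicate 1 (-0.29), 2 (-0.28) or 3 (-0.30).

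Promoter sequences were read from RefSeq's table for GRCm38.p6, which held 9 of the 10 members with 11 starts, 3 of them for *Txnrd1*, and not *Prdx6*. Positions of genes given above are those of the authors' files, which name GRCm38/mm39, and 50588 of 52073 identifiers shared with a GRCm38 annotation have another start there, so the coordinates below are of another build and are not to be joined with them. In the 250 bases before each start, TGACNNNGC and TGAGNNNGC were searched on both strands, forms of the antioxidant response element that Nrf2 binds with small Maf proteins. TGAGTCA, the AP-1 element, was searched too, and a match of either 9-letter form can contain it. Of all 32851 promoters of that length, 10.2% hold TGACNNNGC, 14.4% TGAGNNNGC, 4.46% TGAGTCA, and 23.0% either of the 9-letter forms. *Srxn1*, *Prdx1*, *Txnrd1* at its middle start and *Txn2* held at least 1 match. The other starts of *Txnrd1* held none and are not printed below, and the shares above are per promoter and not per gene. *Srxn1* and *Prdx1* each held TGAGTCA at 2 places, as 0.167% of promoters do, and both TGAGTCA and a 9-letter form, as 1.48% do. In both genes a 9-letter match contains a TGAGTCA match, so these are not separate stretches. In *Prdx1*, TGACTCAGC on the other strand, 133 to 125 bases before the start, contains the TGAGTCA at 131 to 125. In *Srxn1*, TGAGTCAGC at 45 to 37 contains the TGAGTCA at 45 to 39, while TGAGTCGGC at 158 to 150 lies apart. The promoters of *Srxn1*, *Prdx1* and *Txnrd1* are printed because these members rose most with TBHQ alone, with TBHQ before LPS and with TBHQ before PIC. All lie on the plus strand, at chr2:152105274-152105523 for *Srxn1*, chr4:116685349-116685598 for *Prdx1* and chr10:82858956-82859205 for *Txnrd1*, and capitals mark the matches, including those that read as the motif on the other strand. A match is a description of the letters and does not show a site in use.
Srxn1: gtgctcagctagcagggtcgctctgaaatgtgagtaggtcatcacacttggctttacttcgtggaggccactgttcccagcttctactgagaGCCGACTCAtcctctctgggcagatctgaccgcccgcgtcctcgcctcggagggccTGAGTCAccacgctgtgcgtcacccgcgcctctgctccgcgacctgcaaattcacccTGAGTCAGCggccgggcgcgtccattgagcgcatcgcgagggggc
Prdx1: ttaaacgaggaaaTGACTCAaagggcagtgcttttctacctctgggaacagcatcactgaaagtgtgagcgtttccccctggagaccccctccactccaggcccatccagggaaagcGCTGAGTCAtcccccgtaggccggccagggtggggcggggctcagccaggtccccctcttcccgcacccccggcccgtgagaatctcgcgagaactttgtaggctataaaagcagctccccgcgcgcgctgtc
Txnrd1: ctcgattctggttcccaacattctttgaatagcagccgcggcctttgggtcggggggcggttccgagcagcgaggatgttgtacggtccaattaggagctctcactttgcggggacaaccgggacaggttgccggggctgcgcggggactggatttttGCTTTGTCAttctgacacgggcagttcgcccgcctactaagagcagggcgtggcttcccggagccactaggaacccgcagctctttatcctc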

How the data were processed

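Per the submitters' notes, poly(A)-selected RNA was aligned with HISAT2 2.0.5 and the count of each gene was made by the authors with featureCounts 1.5.0-p3. StringTie 1.3.3b is also named, without its use. The FPKM values were made and deposited by the authors, and dividing the counts by each library's total and by the gene length in the authors' table gave them only up to a constant of 0.943 to 1.12 per library, which differs by condition and whose origin is not given in the sources used here. Reads were not aligned again. All 18 libraries were kept.

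Counts were filtered with filterByExpr, scaled by TMM and fitted in 1 model over the 18 libraries in edgeR 4.0.16 under R 4.3.3, with the quasi-likelihood test and Benjamini-Hochberg adjustment over 13691 genes. The SE is that of the difference of means of log2 CPM (prior count 2). DESeq2 1.42.0 and limma 3.58.1 served as other tools, and total library size, RLE size factors, other filters, omission of each library and a replicate block as other settings. Tables were handled in pandas 2.3.3 and numpy 2.4.6, exact permutation used scipy 1.17.1, and plots used matplotlib 3.10.9, all under python 3.11.15.

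The members and the gene lists were chosen with earlier results of these data known. Other pathway genes are named where TBHQ before a stimulus changed them by at least 0.5 on the log2 scale; the rest are marked in the report as named after their values were seen. Some results on a marker list and on overlapping genes are not reported here. Genes with low counts have little power in these tests, so a listed gene that did not pass may still differ. Protein level, enzyme activity and redox state were not measured, and each treatment had 1 dose and 1 time.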

Additional observations from a re-analysis of the deposited data

Results flagged for a closer look

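Among the members and the pathway genes named, the change with TBHQ under PIC minus that under LPS, in log2 units from edgeR, differed from 0 at an FDR below 0.05 for *Prdx1* (-0.24), *Txnip* (-0.27), *Rrm1* (-0.19), *Rrm2* (-0.31), *Tmx4* (-0.29) and *Msrb1* (0.24). Of the genes used to check the labels, *Slc7a11* (-0.31), *Tnf* (-0.58) and *Ifit1* (0.54) were called and the others were not. Their FDR was 2.0e-04, 1.8e-08 and 7.6e-04 by edgeR with Benjamini-Hochberg adjustment. *Ifit1* lost its call in limma on log2 FPKM. A negative value means a less positive or more negative change under PIC. The cause was not tested.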

How the results depend on the processing

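Members called by edgeR in the 7 comparisons, in the order TBHQ, LPS and PIC against the control, TBHQ added to LPS, TBHQ added to PIC, PIC against LPS, and the difference of the TBHQ effects, were 7, 5, 7, 5, 7, 5 and 1. Beside them, 3973, 6589, 8037, 3274, 4285, 3787 and 251 of all 13691 genes were called. At the study's threshold of FDR below 0.01 with an absolute log2 fold change above 2, edgeR, DESeq2 and limma each called 0 members in all 7, where edgeR called 26, 224, 489, 53, 41, 42 and 0 of all 13691 genes. An unadjusted p below 0.05 in edgeR gave 7, 6, 7, 8, 9, 5 and 2 of the 10 members and 37.9%, 53.1%, 61.9%, 34.0%, 40.0%, 36.8% and 14.2% of all genes. Total library size gave 8 for LPS+TBHQ against LPS, beside 3462 of all 13691 genes. The difference of effects gave 2 in DESeq2, in a fit to the conditions compared, with RLE size factors, with no filter, with a mean of at least 50 counts and in limma on log2(FPKM + 1). In this order, these settings called 348 of 7912, 241 of 13343, 271 of 13691, 380 of 27701, 304 of 10451 and 191 of 13691 genes. Without any 1 library the counts ranged over 5 to 7, 4 to 6, 6 to 7, 4 to 6, 4 to 7, 4 to 5 and 1 to 2. Over all genes, omission of 1 library of the comparison gave 3211 to 3482, 5887 to 6236, 7482 to 7635 and 2599 to 3119 calls. The remaining comparisons had 3487 to 3912, 3174 to 3467 and 160 to 354, with 13965 to 14027 genes tested. With a replicate block the counts were again 7, 5, 7, 5, 7, 5 and 1, beside 4036, 6609, 8063, 3316, 4342, 3836 and 274 of all 13691 genes. Among the other genes named the block ended 1 call, that of *Msrb1* for the difference of effects (0.24, FDR = 0.0505 by edgeR with Benjamini-Hochberg adjustment). After the condition means were removed, the median r was 0.0260 over 45 pairs of libraries with the same number and -0.0114 over 90 with different numbers, and 11 of 18 libraries were closest to their own number. The labels do not say that the numbers pair, and no pairing was assumed elsewhere.

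With a call before or after, total library size turned the sign in PIC against the control for *Txn1* (-0.047), *Prdx6* (-0.11), *Txnrd2* (-0.16) and *Prdx2* (-0.19), and in PIC against LPS for *Txn1* (-1.6e-04) and *Txn2* (-0.098). Without a call on either side it also turned the sign in PIC against LPS for *Prdx6* (-0.087), *Txnrd2* (-0.11) and *Prdx4* (-0.057), and in LPS against the control for *Txn1* (-0.047), *Prdx6* (-0.022) and *Txnrd2* (-0.047), among others. The cause was not tested. Among the genes called, it moved the share that was higher from 49.8% to 35.0% for LPS and from 48.7% to 26.4% for PIC against the control, from 48.9% to 59.5% for LPS+TBHQ against LPS, from 50.6% to 70.3% for PIC+TBHQ against PIC, from 53.7% to 18.4% for PIC against LPS and from 45.0% to 76.1% for the difference of effects, where DESeq2 gave 29.3% and limma on log2(FPKM + 1) 32.5%. Without any 1 library, the log2 difference of *Txn1* to *Txn2* ranged from 0.15 to 0.20 for TBHQ, 0.099 to 0.15 for LPS+TBHQ against LPS and -0.025 to 0.075 for PIC+TBHQ against PIC. For *Txnrd1* to *Txnrd2* these ranges were 1.203 to 1.32, 0.54 to 0.59 and 0.44 to 0.52, and for *Prdx1* to *Prdx3* 0.36 to 0.43, 0.73 to 0.83 and 0.49 to 0.56.

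Over the alternatives for single members, 989 of 1110 values kept their call and direction, 47 lost a call, 25 gained one, 44 changed sign with no call on either side and 5 changed sign with a call on at least 1 side, all 5 named above.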
